A study of Mus musculus with 6 samples.

Results

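Described here are 39 mouse genes of the NRF2 and antioxidant programme: the NRF2 regulators, the enzymes of glutathione and thioredoxin metabolism, superoxide and peroxide removal, NADPH supply by the pentose phosphate pathway, detoxification and export. They were chosen by gene symbol, and all 39 were found among the 21878 genes of the deposited count table. All 39 also passed the filter on low counts that left 11459 genes for testing. RNA sequencing was done on wild-type bone marrow-derived macrophages of C57BL/6 mice, grown in M-CSF (50 ng/mL), the macrophage growth factor. All libraries came from macrophages that had spent 48 h across a transwell membrane (0.4 µm pores) from LLC cells, a mouse lung carcinoma line. After a change of medium, one group received β-elemene, a sesquiterpene from plants, at 100 µg/mL and the other group received PBS in the same volume, each for 24 h. The study had no macrophages without LLC cells among the libraries used here, and the solvent of β-elemene is not stated in the labels. Each group had 3 libraries. Whether these were separate cultures or animals is not stated, so p-values measure the spread between the libraries, which may be technical.

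NRF2, encoded by Nfe2l2, is a transcription factor that in resting cells is bound by KEAP1 and marked for degradation. Electrophiles and oxidants modify cysteines of KEAP1, and NRF2 then accumulates, pairs with small MAF proteins and binds antioxidant response elements, sites that the repressor BACH1 can also occupy. In macrophages the programme governs the supply of glutathione, thioredoxin and NADPH and is known to restrain inflammatory cytokine genes. NRF2 activity is set mainly at the level of the protein, which was not measured here.

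Total gene counts ran from 18916844 to 20729887 per library. Levels are given as CPM, counts scaled by TMM to a common library total, whose factors lay between 0.794 and 0.812 with β-elemene and between 1.24 and 1.26 with PBS. Of all genes tested, 76.7% passed an edgeR quasi-likelihood test at a Benjamini-Hochberg adjusted p below 0.05, with 36.6% up and 40.2% down in the β-elemene libraries. Macrophage markers (8 of 8 detected) summed to 16401 to 16977 CPM with β-elemene and 13489 to 14498 CPM with PBS. The most abundant was Lyz2 (9203 against 6776), and of the 8 markers 5 were called higher and 3 lower. All 6 epithelial markers, which LLC cells could bring, stayed at or below 3 counts in every library, and Krt19 and Cldn4 were at 0. Fibroblast markers summed to 1.69 to 3.87 CPM with β-elemene and 13.2 to 17.2 with PBS, led by Col1a2 (0.698 against 4.71). Of 5 fibroblast markers tested, 3 were called lower and 0 higher. Endothelial markers summed to 2.60 to 4.06 against 16.3 to 20.8, led by Pecam1 (2.28 against 18.3). Of 2 endothelial markers tested, 1 was called higher and 1 lower. Neutrophil markers summed to 21.8 to 24.7 CPM against 8.73 to 11.7, led by S100a8 (15.8 against 4.03). Of 4 neutrophil markers tested, 3 were called higher and 1 lower. The 10 immediate early and stress genes summed to 1444 to 1514 against 1073 to 1094, led by Atf3 (722 against 599). Of 9 such genes tested, 7 were called higher and 2 lower. Dendritic cell markers summed to 2.58 to 2.89 CPM against 3.39 to 4.43. Zbtb46, the most abundant of them over the 6 libraries, stood at 0.691 against 3.26. Of 2 dendritic cell markers tested, 1 was called higher and 1 lower, so the sum hides opposite moves. B cell markers summed to 0.984 to 1.90 against 1.94 to 4.45, led by Cd79b (0.772 against 3.32). T and NK cell markers summed to 5.73 to 7.97 CPM against 5.26 to 6.91, and mast cell markers to 0.0651 to 0.307 against 0 to 0.0777. In bulk RNA, fewer cells of a type and less RNA per cell cannot be told apart. The part of these other cell types and stress genes in the results below was not tested.

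One library stood apart within its group for these genes. β-Elemene replicate 2 had the highest level of its group for 30 of the 39 genes (76.9%), where it was highest for 35.9% of all genes tested. In the PBS group no library took so large a share. There replicate 2 was highest for 19 of the 39 (48.7%, beside 35.4% of all genes tested). PBS replicate 3 was highest for 16 (41.0%, beside 36.4%) and PBS replicate 1 for 4 (10.3%, beside 28.2%). β-Elemene replicate 2 also had the lowest total of the 6 libraries, 18916844 counts. The part of depth in its levels was not tested. Calls, signs and 2-fold counts of the 39 genes that change without β-elemene replicate 2 are therefore given both ways.

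With β-elemene Prdx1, Prdx5, Txn1 and Txnrd1 of the thioredoxin system, Sod2, Gsr, Slc7a11, Keap1, Mafk and Nfe2l2 stood higher, while both subunits of the enzyme that starts glutathione synthesis, the repressor gene Bach1, Tkt and Cbr3 stood lower. In all, 22 of the 39 genes rose, 9 fell and 8 did not pass the edgeR test, beside 36.6% rising and 40.2% falling among all genes tested. As shares these are 56.4% rising and 23.1% falling. The share that passed in either direction, 79.5%, is near the 76.7% over all genes, and the libraries of one group all lay on one side of the other group's for 32 genes (82.1%) beside 79.9% of all genes. The median log2 fold change (β-elemene over PBS) of the 39 was 0.40, and that of all genes tested was -0.06. A passing change of at least 2-fold was found for 15 genes, beside 35.3% of all genes tested, 12 of them upward and 3 downward, beside 17.0% and 18.3%. Without β-elemene replicate 2, 21 rose and 11 fell, and of the 15 passing changes of at least 2-fold 11 were upward and 4 downward.

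The balance depends on how libraries are scaled. Scaling by library size alone, which moves the median of all genes by -0.64 on the log2 scale, gave 12 rises and 19 falls among the 39 (30.8% and 48.7%), beside 18.9% and 69.8% of all genes. With upper quartile factors, which move that median by -0.32, 18 rose and 12 fell, beside 25.7% and 57.0% of all genes. Under all 14 alternatives computed, 12 rises and 8 falls kept their call wherever the gene was tested. The like share over all genes was not computed, so these counts have no background beside them. Upper quartile factors and library size alone lower all genes, so they put the rises to the test but could hardly undo a fall. Median-of-ratios factors moved the median of all genes up by only 0.04. The rises were those of Nfe2l2, Keap1, Mafk, Slc7a11, Gsr, Txn1, Txnrd1, Prdx1, Prdx5, Sod2, Gsta4 and Abcc1. The falls were those of Bach1, Gclc, Gclm, Gpx1, Tkt, Mgst1, Cbr3 and Osgin1.

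**Figure D1:**
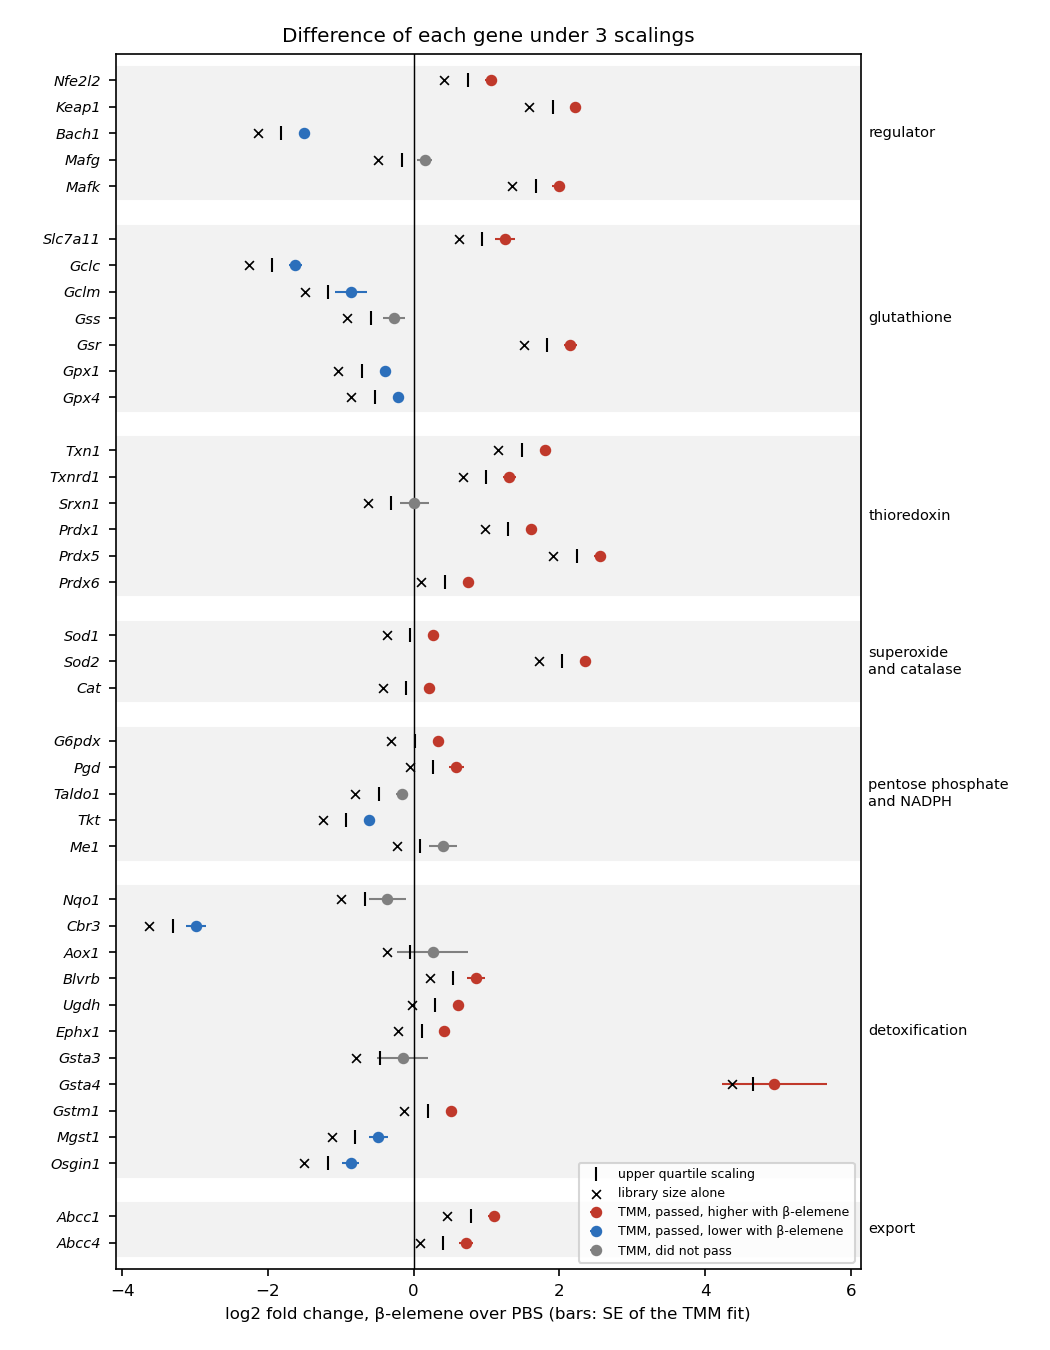
Log2 fold change of each of the 39 genes (x axis, β-elemene over PBS), by branch, with dots and SE bars for the TMM fit, vertical ticks for upper quartile factors and crosses for library size alone. The other scalings move every gene to the left by a like amount, so that Cat and Sod1 change sign while Prdx5, Sod2 and Keap1 stay to the right of 0 and Cbr3, Gclc and Bach1 to the left.

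Shares of a library's own counts correspond to scaling by library size alone, under which all genes tested had a median log2 fold change of -0.70. The 39 genes together held 1.10%, 1.27% and 1.10% of all gene counts in the 3 β-elemene libraries, in replicate order, and 0.803%, 0.801% and 0.781% in the 3 PBS libraries. The 6 thioredoxin genes accounted for 0.647%, 0.753% and 0.656% with β-elemene and 0.355%, 0.343% and 0.333% with PBS. On the log2 scale the ratio of the mean shares was 0.54 for all 39 genes, 1.00 for thioredoxin, 1.22 for superoxide and catalase, 0.37 for export and 0.23 for the regulators. The 7 glutathione genes held 0.0640%, 0.0709% and 0.0583% against 0.101%, 0.106% and 0.0997%, a log2 ratio of -0.67 that is near the median of all genes. The ratio was -0.51 for pentose phosphate and NADPH, -0.36 for detoxification and -0.30 for the 114 related redox genes described below. These are shares of reads, so long and abundant transcripts weigh most, and Prdx1 alone makes up most of the thioredoxin share.

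**Figure D2:**
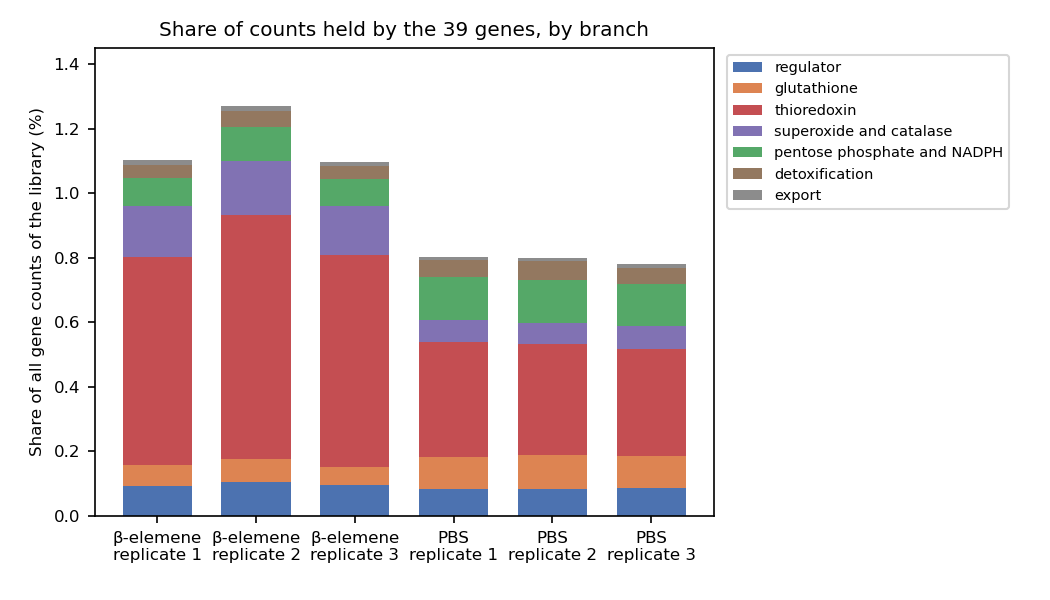
Stacked bars of the share of all gene counts (y axis, percent, from 0) that each branch of the 39 genes held in each of the 6 libraries. The β-elemene bars reach 1.10% to 1.27% and the PBS bars 0.781% to 0.803%, with the thioredoxin segment the tallest in all 6.

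Per kilobase of merged coding-transcript exon, Prdx1 was the most abundant of the 39 in both groups, with a level of 721 CPM per kb with PBS and 2211 with β-elemene, rank 33 and rank 20 among 11047 genes with a length. With PBS, Gpx1 (361 CPM per kb), Taldo1 (192), Txn1 (186) and Pgd (156) came next. With β-elemene the order after Prdx1 was Prdx5 (791 CPM per kb), Txn1 (649), Nfe2l2 (299) and Sod2 (291), and Gpx1 had 274. At the low end, Aox1, Gsta3, Gsta4, Nqo1 and Me1 were at or below 1.21 CPM per kb in both groups. Nqo1, the quinone reductase often used to read out NRF2, was thus barely detected in these macrophages, with 17, 25 and 28 counts in the β-elemene libraries and 49, 47 and 49 in the PBS libraries.

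**Figure D3:**
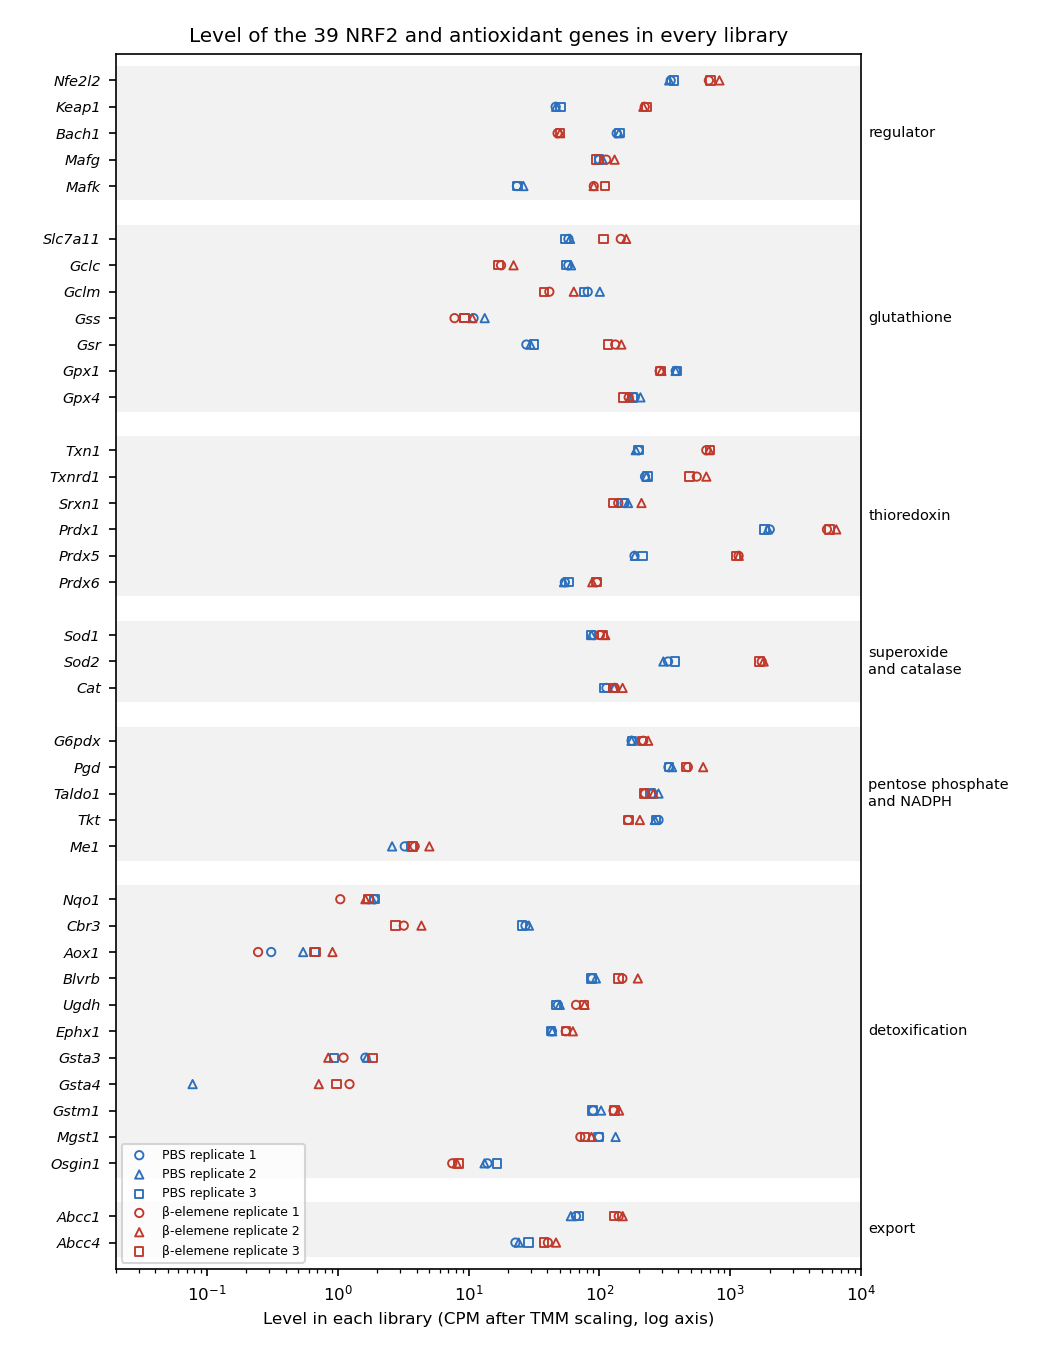
Level of each of the 39 genes in each library (x axis, CPM after TMM scaling, log scale), by branch, with red for β-elemene, blue for PBS and a marker shape for each replicate number. Levels run from below 1 CPM for Aox1 to 6471 CPM for Prdx1, and the 2 PBS libraries in which Gsta4 had 0 counts cannot be drawn on this axis.

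Among the regulators, Nfe2l2, Keap1 and Mafk rose, Bach1 fell and Mafg did not pass. Nfe2l2 (chromosome 2, 75675513 to 75704663, GRCm38.p6) stood at 687, 827 and 708 CPM in the β-elemene libraries and at 351, 342 and 374 CPM in the PBS libraries, in replicate order here and below. Every β-elemene library was above every PBS library, a 2.08-fold difference (log2 fold change 1.06, SE 0.08, edgeR adjusted p = 2.15e-08). Without β-elemene replicate 2 the log2 fold change of Nfe2l2 was 0.998, just under 2-fold. Keap1 (chromosome 9, 21229730 to 21239332), which encodes the adaptor that marks NRF2 for degradation, stood at 222, 217 and 229 CPM against 46.3, 46.7 and 50.3. Its rise was larger, 4.66-fold (log2 fold change 2.22, SE 0.06, edgeR adjusted p = 7.50e-13), with tight replicates in both groups. Within each library, Nfe2l2 had 3.09, 3.81 and 3.10 counts per Keap1 count with β-elemene and 7.58, 7.32 and 7.43 with PBS. That ratio, which no scaling between libraries can change, was 2.24-fold lower with β-elemene.

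Bach1 (chromosome 16, 87698954 to 87733346) encodes a haem-sensitive repressor that competes for the same sites. It stood at 47.9, 50.1 and 50.3 CPM with β-elemene and 136, 141 and 143 CPM with PBS. The groups were far apart, with the β-elemene level 2.83-fold lower (log2 fold change -1.50, SE 0.06, edgeR adjusted p = 2.69e-11). Relative to Nfe2l2 in the same library, Bach1 fell from ratios of 0.386, 0.413 and 0.381 to 0.0697, 0.0605 and 0.0710, a 5.87-fold difference. The small MAF genes, whose products lack an activation domain and pair with either factor, parted. Mafk (chromosome 5, 139791536 to 139802653) stood at 90.7, 90.4 and 109.9 CPM against 23.4, 26.3 and 23.7, a 3.97-fold rise (log2 fold change 1.99, SE 0.09, edgeR adjusted p = 1.50e-10). Mafg stood at 113, 131 and 94.6 CPM against 99.5, 106 and 99.1, with overlapping groups and an edgeR adjusted p of 0.194. Its log2 fold change of 0.15 was -0.17 with upper quartile factors and -0.49 with library size alone, and without β-elemene replicate 3 it was 0.28 (edgeR adjusted p = 0.00444). Mafk counts per Mafg count went from 0.236, 0.248 and 0.239 with PBS to 0.804, 0.692 and 1.16 with β-elemene.

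In the glutathione branch, Slc7a11 and Gsr rose, Gclc, Gclm, Gpx1 and Gpx4 fell, and Gss did not pass. These are 2 higher and 4 lower of 7 (28.6% and 57.1%), beside 36.6% and 40.2% of all genes tested. Slc7a11 (chromosome 3, 50364936 to 50499087) encodes the cystine transporter xCT, which supplies cysteine. It stood at 146, 160.4 and 108 CPM with β-elemene and 58.0, 59.7 and 55.2 with PBS, a 2.39-fold rise (log2 fold change 1.26, SE 0.14, edgeR adjusted p = 6.32e-05). The β-elemene libraries were spread widely but all lay above the PBS libraries. Glutamate-cysteine ligase, the rate-limiting step of glutathione synthesis, is made of a catalytic subunit from Gclc and a modifier subunit from Gclm. Gclc (chromosome 9, 77754535 to 77794489) stood at 17.7, 22.1 and 17 CPM against 57.8, 60.7 and 56.1, a 3.08-fold fall (log2 fold change -1.62, SE 0.09, edgeR adjusted p = 1.81e-09). Gclm (chromosome 3, 122245487 to 122267215) stood at 41.5, 63.7 and 37.7 CPM against 81.5, 101 and 76.7, with replicate 2 the highest in both groups. The Gclm groups did not overlap (log2 fold change -0.86, SE 0.22, edgeR adjusted p = 0.0144), and the fall was 1.82-fold. Without β-elemene replicate 2 the log2 fold change of Gclm was -1.10, a fall of more than 2-fold. Gclc counts per Gclm count were 0.427, 0.346 and 0.450 with β-elemene and 0.710, 0.602 and 0.731 with PBS, so the catalytic subunit's transcript was 1.67-fold lower relative to that of the modifier subunit.

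Gss, which encodes glutathione synthetase, the second step, stood at 7.81, 10.7 and 9.32 CPM against 10.9, 13.3 and 9.32. The groups overlapped and the gene did not pass (log2 fold change -0.27, edgeR adjusted p = 0.116), but it was called lower with upper quartile factors (-0.59), with library size alone (-0.91) and without PBS replicate 3 (-0.39). Gsr (chromosome 8, 33653238 to 33698162) encodes glutathione reductase, which regenerates glutathione with NADPH. Its levels were 132, 147 and 116 CPM against 27.7, 29.8 and 31.8, a 4.43-fold rise with no overlap (log2 fold change 2.15, SE 0.09, edgeR adjusted p = 2.53e-10). Set against Gss in the same library, Gsr went from ratios of 2.53, 2.24 and 3.41 to 16.9, 13.8 and 12.5 and Slc7a11 from 5.31, 4.49 and 5.92 to 18.7, 15 and 11.6. Gpx1, the main cytosolic glutathione peroxidase, stood at 289, 298 and 294 CPM against 383, 383 and 393, a modest fall (log2 fold change -0.40, SE 0.05, edgeR adjusted p = 1.23e-05) with hardly any spread in either group. Gpx4, which reduces lipid hydroperoxides and guards against ferroptosis, stood at 168, 171 and 153 CPM against 186, 206 and 181. Its fall was smaller (log2 fold change -0.22, SE 0.07, edgeR adjusted p = 0.00749) and did not pass without β-elemene replicate 3 (-0.16, edgeR adjusted p = 0.0574). The Gpx1 to Gpx4 ratio overlapped between groups (exact permutation p = 0.200).

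In the thioredoxin branch 5 of 6 genes rose and none fell, beside 36.6% and 40.2% of all genes tested. With library size alone 4 rose and 1 fell, beside 18.9% and 69.8% of all genes. Without β-elemene replicate 2, 5 rose and 1 fell, beside 36.8% and 38.4%. Thioredoxin, from Txn1, reduces peroxiredoxins and is itself reduced by thioredoxin reductase, a selenoprotein from Txnrd1. Prdx5 (chromosome 19, 6906697 to 6910106), a peroxiredoxin found in mitochondria, peroxisomes and cytosol, stood at 1159, 1164 and 1109.8 CPM against 186, 187 and 214. At 5.86-fold (log2 fold change 2.55, SE 0.07, edgeR adjusted p = 1.44e-12) this was the largest rise among the 39 genes apart from Gsta4, which had almost no counts with PBS. Txn1 (chromosome 4, 57943373 to 57956411) stood at 656, 691 and 699 CPM against 199, 189.8 and 199, with an SD of 3.32% and 2.72% of the mean and a 3.48-fold rise (log2 fold change 1.80, SE 0.06, edgeR adjusted p = 6.04e-12). Prdx1 (chromosome 4, 116685599 to 116700000), the abundant cytosolic peroxiredoxin, stood at 5492, 6471 and 5743 CPM against 2007, 1940.5 and 1829.9, a 3.06-fold rise (log2 fold change 1.62, SE 0.08, edgeR adjusted p = 4.62e-10). Txnrd1 (chromosome 10, 82833951 to 82897724) stood at 555, 657 and 489 CPM against 223, 229 and 233, a 2.48-fold rise (log2 fold change 1.31, SE 0.09, edgeR adjusted p = 9.33e-08). Relative to Txn1 in the same library, Txnrd1 was 1.41-fold lower with β-elemene, with ratios of 0.846, 0.952 and 0.699 against 1.12, 1.20 and 1.17.

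Prdx6, a peroxiredoxin that draws on glutathione, stood at 95.5, 88.2 and 95.3 CPM against 54.5, 53.6 and 58.8 and rose 1.67-fold (log2 fold change 0.74, edgeR adjusted p = 1.08e-07). With library size alone the rise was 0.10 and did not pass (edgeR adjusted p = 0.118). Prdx5 counts per Prdx6 count went from 3.41, 3.48 and 3.64 with PBS to 12.1, 13.2 and 11.6 with β-elemene, a 3.51-fold difference between 2 genes that both rose under TMM. Srxn1, which encodes sulfiredoxin and repairs over-oxidised peroxiredoxins, was the exception. It stood at 139, 209.8 and 127 CPM against 156, 166 and 150.5, and β-elemene replicate 2 lay above all PBS libraries while the other 2 lay below them (log2 fold change 0.01, SE 0.20, edgeR adjusted p = 0.964). Without β-elemene replicate 2, Srxn1 was called lower with a log2 fold change of -0.22 (edgeR adjusted p = 0.00674), and library size alone also called it lower (-0.62, edgeR adjusted p = 0.0296). Srxn1 counts per Prdx1 count were 0.0254, 0.0324 and 0.0221 with β-elemene and 0.0777, 0.0853 and 0.0822 with PBS, a 3.11-fold drop.

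Promoter windows from RefSeq (GRCm38.p6, 250 bases before to 50 after an annotated start) were at hand for 34 of the 39 genes. The antioxidant response element core, searched on both strands as TGAC, any 3 bases and GCA, was found for 3 of these 34 genes (8.82%), Txnrd1, Pgd and Gsta3, and for 3.45% of all 27025 genes with a window. A core without the final A was not searched for. Txnrd1 and Pgd rose and Gsta3 did not pass. The upstream part of the Txnrd1 window is shown because it holds such a core before a start of a gene that rose, although this start lies inside the gene, downstream of its first annotated start. Capitals mark the core, which reads TGACAAAGCA on the other strand and whose leftmost base lies 93 bases before the start.
Txnrd1, chr10:82858956-82859205, plus strand: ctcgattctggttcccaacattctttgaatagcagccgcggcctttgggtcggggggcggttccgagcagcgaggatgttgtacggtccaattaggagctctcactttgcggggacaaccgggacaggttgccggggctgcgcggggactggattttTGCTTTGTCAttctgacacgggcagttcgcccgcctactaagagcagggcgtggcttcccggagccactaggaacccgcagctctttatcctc
The Pgd core lies just past an internal start of that gene, and 30 bases around it are shown in the direction of the gene.
Pgd, chr4:149166060-149166089, minus strand: atttcagagcTGACATTGCActgatcggac

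The AP-1 site TGACTCA was found for 5 of the 34 genes (14.7%), beside 5.95% of all genes with a window. It can form part of an antioxidant response element. In these windows no such site overlapped the core as searched, which must end in A. On the other strand the Prdx1 site nearer the start reads TGACTCAGCG, which differs from the searched core in its last base only. The Me1 site reads the same letters in the direction of the gene. Of those 5 genes, the windows of Prdx1 and Srxn1 each held 2 such sites and that of Osgin1 held 1. These sites are shown because the genes had a mean level of at least 5 CPM. Prdx1 rose, Srxn1 did not pass and Osgin1 fell. The Prdx1 and Srxn1 sites lie before the first annotated base of the gene, whereas the Osgin1 window belongs to a start 11265 bases inside the gene as annotated. Each line gives 30 bases on the plus strand, which is the strand of all 3 genes, with the site in capitals.
Prdx1, chr4:116685352-116685381: aacgaggaaaTGACTCAaagggcagtgctt
Prdx1, chr4:116685458-116685487: gggaaagcgcTGAGTCAtcccccgtaggcc
Srxn1, chr2:152105412-152105441: tcggagggccTGAGTCAccacgctgtgcgt
Srxn1, chr2:152105469-152105498: aaattcacccTGAGTCAgcggccgggcgcg
Osgin1, chr8:119437040-119437069: gggcccctgcTGACTCAcgcttatgaaagt
Me1 and Aox1, whose mean levels were lower than that, hold the other matches. A match describes letters in the reference, and binding of NRF2 or AP-1 was not measured.

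Superoxide dismutases turn superoxide into hydrogen peroxide, which catalase breaks down. Sod2 (chromosome 17, 13007839 to 13018119), the mitochondrial dismutase, stood at 1741, 1802 and 1677 CPM against 335, 309 and 377, a 5.11-fold rise with wide separation (log2 fold change 2.35, SE 0.08, edgeR adjusted p = 9.76e-12). Sod1, the cytosolic dismutase, stood at 101, 111 and 106 CPM against 90.4, 87.1 and 86.7. It was called higher under TMM (log2 fold change 0.27, edgeR adjusted p = 7.63e-04), was -0.05 and did not pass with upper quartile factors, and was called lower with library size alone (-0.37). Sod2 counts per Sod1 count rose from 3.71, 3.54 and 4.35 with PBS to 17.2, 16.3 and 15.9 with β-elemene, a 4.27-fold difference free of that choice. Cat stood at 131, 150.5 and 128 CPM against 113, 129.8 and 109, with overlapping groups. Its call as higher (log2 fold change 0.22, edgeR adjusted p = 0.0246) did not hold without β-elemene replicate 2 (0.16, edgeR adjusted p = 0.0530), without PBS replicate 1 (0.19, edgeR adjusted p = 0.0914) or without PBS replicate 3 (0.17, edgeR adjusted p = 0.0976), and it turned to lower with library size alone (-0.42). The Cat to Sod1 ratio overlapped between groups (exact permutation p = 0.700).

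**Figure D4:**
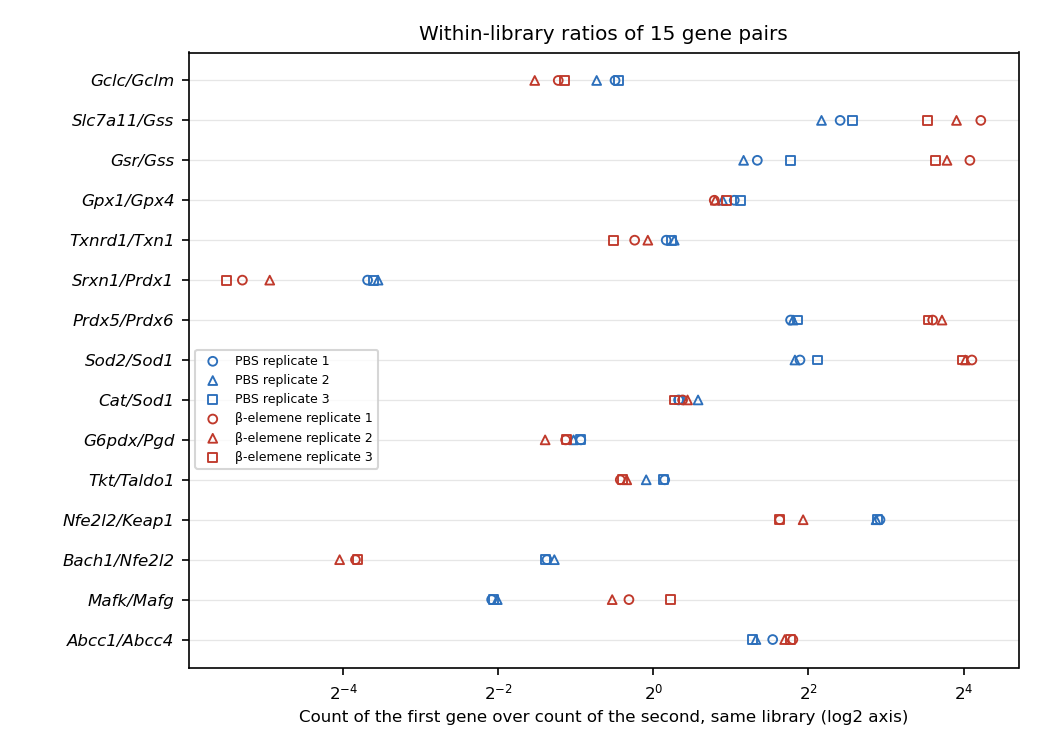
Count of one gene over the count of another in the same library (x axis, log2 scale) for 15 pairs, with red for β-elemene, blue for PBS and a marker shape for each replicate number. Bach1 over Nfe2l2 lies far to the left with β-elemene, Sod2 over Sod1 and Gsr over Gss far to the right, and the groups overlap for Gpx1 over Gpx4 and Cat over Sod1.

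Ratios were computed for 16 pairs of the 39 genes. For 14 of the 16 the groups were apart, beside 80.8% of all pairs of genes tested, so that count is near the background. With 3 libraries against 3, the exact two-sided permutation test cannot go below p = 0.1, which adjusted over the pairs is 0.114, so none can pass 0.05.

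The pentose phosphate pathway makes NADPH, which glutathione reductase and thioredoxin reductase both use. With TMM the 2 oxidative genes were called higher and Tkt of the non-oxidative arm lower, beside 36.6% and 40.2% of all genes tested. With library size alone no gene of this branch was called higher and 3 of 5 were called lower. Of all genes, 18.9% were then called higher and 69.8% lower. G6pdx, the entry enzyme glucose-6-phosphate dehydrogenase, stood at 217, 236 and 212 CPM against 176, 176 and 177 and was called higher (log2 fold change 0.33, edgeR adjusted p = 1.40e-04), but not with upper quartile factors (0.01), and it was called lower with library size alone (-0.31). Pgd (chromosome 4, 149149991 to 149166705), 6-phosphogluconate dehydrogenase, stood at 475, 622 and 459 CPM against 337, 359 and 339, with β-elemene replicate 2 well above the rest. It rose (log2 fold change 0.59, SE 0.10, edgeR adjusted p = 5.06e-04), although library size alone gave -0.05 and no call. Tkt (chromosome 14, 30549131 to 30574724), the transketolase of the non-oxidative arm, stood at 166, 204 and 167 CPM against 283, 266 and 269 and fell with no overlap (log2 fold change -0.61, SE 0.08, edgeR adjusted p = 9.67e-06).

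Taldo1, the transaldolase of the same arm, stood at 223, 259 and 219.8 CPM against 256, 283 and 246. It did not pass (log2 fold change -0.16, edgeR adjusted p = 0.0623), but was called lower without β-elemene replicate 2 (-0.22, edgeR adjusted p = 0.00839), without PBS replicate 3 (-0.21, edgeR adjusted p = 0.0356), with no filter on low counts (-0.18) and with a replicate block (-0.16, edgeR adjusted p = 0.0143), as well as with upper quartile factors (-0.48) and library size alone (-0.80). Tkt counts per Taldo1 count were 0.744, 0.788 and 0.760 with β-elemene and 1.11, 0.938 and 1.10 with PBS, and G6pdx counts per Pgd count were 0.456, 0.380 and 0.461 and 0.523, 0.490 and 0.522. Me1, the cytosolic malic enzyme and another NADPH source, was low at 3.87, 5.01 and 3.74 CPM against 3.25, 2.60 and 3.66 and did not pass (edgeR adjusted p = 0.0745), though the groups did not overlap.

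The 11 detoxification genes divided, with 5 higher, 3 lower and 3 not passing. As shares these are 45.5% higher and 27.3% lower, beside 36.6% and 40.2% of all genes tested. With library size alone 1 was higher and 6 were lower, beside 18.9% and 69.8% of all genes. Cbr3 (chromosome 16, 93683219 to 93690991), a carbonyl reductase, stood at 3.20, 4.36 and 2.76 CPM against 27.2, 28.9 and 25.6, the largest fall among the 39 at 7.94-fold (log2 fold change -2.99, SE 0.13, edgeR adjusted p = 1.80e-10). Osgin1, an oxidative stress-induced growth inhibitor gene, stood at 7.50, 8.14 and 8.40 CPM against 13.9, 13.2 and 16.6 (log2 fold change -0.86, SE 0.12, edgeR adjusted p = 1.57e-05). Mgst1, a membrane-bound glutathione transferase, stood at 71.5, 87.0 and 77.9 CPM against 99.5, 133 and 98.6, with PBS replicate 2 far above the other PBS libraries (log2 fold change -0.49, edgeR adjusted p = 0.00904). All 3 fell under every scaling tried, but upper quartile factors and library size alone lower all genes, so they could hardly undo a fall.

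Blvrb, a biliverdin and flavin reductase, stood at 149.9, 197 and 139.8 CPM against 87.9, 94.1 and 87.1 (log2 fold change 0.85, edgeR adjusted p = 2.14e-04). Ugdh, which makes UDP-glucuronate, stood at 66.3, 77.1 and 76.6 CPM against 48.2, 49.8 and 46.4 (log2 fold change 0.61, edgeR adjusted p = 2.86e-06). Gstm1, a cytosolic glutathione transferase of a family with close copies, stood at 128, 142 and 130.4 CPM against 89.6, 103 and 88.3 (log2 fold change 0.51, edgeR adjusted p = 1.47e-05). Ephx1, microsomal epoxide hydrolase, stood at 55.4, 62.7 and 55.6 CPM against 43.4, 43.6 and 42.5 (log2 fold change 0.42, edgeR adjusted p = 5.33e-05). These 4 were called higher under TMM, but with library size alone Blvrb (0.22), Ugdh (-0.03) and Gstm1 (-0.13) did not pass and Ephx1 (-0.21) was called lower. Ephx1 also did not pass with upper quartile factors (0.11).

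The remaining detoxification genes had few reads. Gsta4 (chromosome 9, 78191966 to 78209349), a glutathione transferase for 4-hydroxynonenal, had 20, 11 and 16 counts with β-elemene and 0, 2 and 0 with PBS. Its 47 against 2 summed counts give a ratio of 37.9 after scaling, with a 95% counting interval of 9.91 to 322 (exact binomial, counting error only), and the edgeR adjusted p was 3.07e-05. Gsta3 had 18, 13 and 30 counts against 42, 43 and 24, Nqo1 the counts given above and Aox1 4, 14 and 11 against 8, 14 and 17. None of these 3 passed (edgeR adjusted p = 0.698, 0.218 and 0.636), and their scaled ratios were 0.902 (0.648 to 1.24), 0.778 (0.576 to 1.04) and 1.20 (0.714 to 1.99), so differences of that order were not detectable at this depth. Nqo1 was called lower with upper quartile factors (-0.67) and library size alone (edgeR adjusted p = 0.00251), and Gsta3 with library size alone (-0.79). Members of the Gsta and Gstm families are uncertain, since reads shared between near-identical copies could have been split or dropped in counting.

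Abcc1 encodes MRP1, which exports glutathione conjugates, and Abcc4 encodes MRP4, an exporter of organic anions. Abcc1 (chromosome 16, 14361453 to 14474878) stood at 141, 151 and 129 CPM against 66.3, 60.5 and 69.5, a 2.14-fold rise (log2 fold change 1.10, SE 0.07, edgeR adjusted p = 8.50e-09). Abcc4 stood at 40.4, 46.6 and 37.9 CPM against 22.8, 24.2 and 28.7 (log2 fold change 0.72, edgeR adjusted p = 2.69e-05), a call that was lost with library size alone (0.08, edgeR adjusted p = 0.437). Both were higher in every β-elemene library than in any PBS library. The Abcc1 to Abcc4 ratio was 3.48, 3.23 and 3.40 with β-elemene and 2.90, 2.50 and 2.42 with PBS.

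Beside the 39 stands a list of 114 other genes of the same branches, of which 99 could be tested. Of these 36 rose, 47 fell and 16 did not pass, shares of 36.4% and 47.5% beside 36.6% and 40.2% of all genes, with a median log2 fold change of -0.23. Around the regulators 7 of 10 rose and 2 fell, led by Trim21, a ubiquitin ligase induced by interferon, at 316 ± 19 CPM (mean ± SD, n = 3) against 20.8 ± 0.678 (log2 fold change 3.92). Dpp3, a peptidase that binds KEAP1, was called lower (log2 fold change -0.15) under TMM and failed to pass under 7 of 14 alternatives. Of 18 glutathione genes 4 rose and 10 fell. Chac2, which breaks down glutathione, stood at 10.2 ± 2.15 against 3.42 ± 0.410 CPM, and Hagh, a glyoxalase, at 4.96 ± 1.48 against 29.0 ± 1.4. Slc3a2, the heavy chain that pairs with xCT, was picked out after its values were seen. It stood at 567 ± 14.5 against 480.0 ± 26.5 CPM, a log2 fold change of 0.24 that turned to -0.40 with library size alone.

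Of 15 further thioredoxin genes 7 rose and 8 fell (46.7% and 53.3%), beside 36.6% and 40.2% of all genes tested. Msrb2, a methionine sulfoxide reductase, rose 2.17-fold, and Sesn2, sestrin 2, fell from 14.6 ± 0.383 to 4.91 ± 0.842 CPM. Txn2, Txnrd2 and Prdx3, which act in mitochondria, were singled out after their values were seen. Txn2 stood at 64.1 ± 2.97 against 89.2 ± 2.15 CPM, Txnrd2 at 10.7 ± 1.22 against 18.1 ± 1.04 and Prdx3 at 30.8 ± 1.43 against 44.6 ± 3.53. All 3 fell, by log2 fold changes of -0.48, -0.76 and -0.53, and kept that call under all 14 alternatives. Among these, upper quartile factors and library size alone lower all genes and could hardly undo a fall. The share of all falling genes that kept their call was not computed. Mitochondrial genes shared no direction, since Sod2, Msrb2 and Prdx5, which is found there among other places, rose by log2 fold changes of 2.35, 1.11 and 2.55. All 6 further genes listed under superoxide and catalase, Sod3, Ccs, Ucp2, Oxr1, Park7 and Aifm2, fell, beside 40.2% of all genes tested. Ccs lost its call under 7 of 14 alternatives, and Sod3 had 1 summed count with β-elemene and 66 with PBS. Among those of the 6 with a mean of at least 5 CPM, the largest fall was that of Aifm2, the ferroptosis suppressor FSP1. It went from 53.8 ± 3.43 to 15.4 ± 0.455 CPM.

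Of 14 NADPH genes 4 rose and 9 fell (28.6% and 64.3%), beside 36.6% and 40.2% of all genes tested. Aldh1l1, a folate dehydrogenase, rose 2.82-fold, and H6pd, the endoplasmic counterpart of G6pdx, fell by 3.10-fold to 26.6 ± 1.25 CPM. The 29 other detoxification genes held 11 rises and 8 falls (37.9% and 27.6%), the share of rises being near that of all genes. Blvra, biliverdin reductase A, rose 2.22-fold, and Por, the electron donor of cytochromes P450, went from 169.8 ± 6.03 to 84.0 ± 6.5 CPM. Of 7 export genes 3 were higher and 4 lower (42.9% and 57.1%). Abcb1a, a P-glycoprotein gene with the close copy Abcb1b, stood at 19.5 ± 3.40 against 2.01 ± 0.733 CPM. Slco2b1, listed in this branch although it encodes an uptake carrier for organic anions, stood at 0.585 ± 0.0831 against 12.1 ± 1.65.

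**Figure D5:**
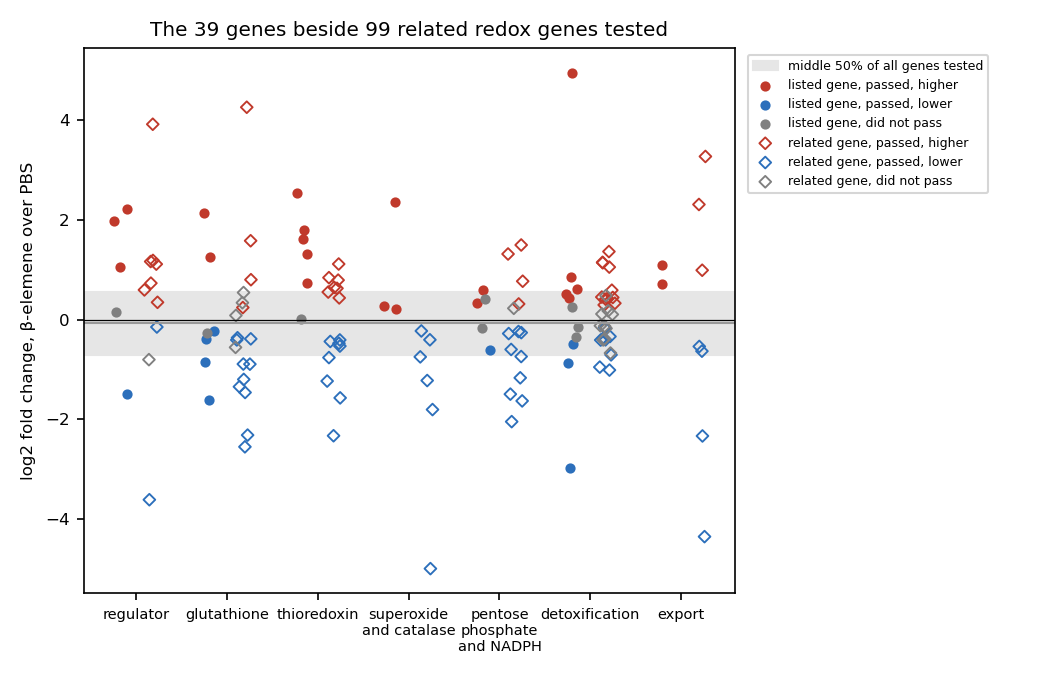
Log2 fold change (y axis, β-elemene over PBS, TMM fit) of the 39 genes (filled circles) and the 99 related genes tested (open diamonds) by branch, coloured by call, with a grey band for the middle 50% of all genes tested. The thioredoxin circles lie at or above 0 while the thioredoxin diamonds lie on both sides, and all 6 superoxide and catalase diamonds lie below 0.

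Pathway labels in the deposited table, looked at after the counts were seen, give another grouping, in which most genes are not among the 39. Of 61 genes labelled with KEGG glutathione metabolism, 40 were tested, 12 rose and 13 fell, both smaller shares than the 36.6% and 40.2% over all genes tested, so that 62.5% passed beside 76.7%. The 12 of the 39 genes that carry this label divided into 5 higher and 5 lower, and the other 28 tested into 7 and 8, with 53.6% passing. Under the KEGG pentose phosphate label 24 of 32 genes were tested, with 8 higher and 9 lower (33.3% and 37.5%), so that 70.8% passed.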

How the data were processed

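The table the authors deposited holds unnormalized whole-number counts for each gene. Libraries were stranded mRNA preparations with paired-end reads, per the labels' protocols. Per the submitters' processing notes, HISAT2 2.2.1.0 was used, with mm10 and GRCm38.p6 as builds. For the counting tool and its strand setting, nothing is given in the sources used here. Where strand was not used, overlapping and antisense genes cannot be told apart. Sample titles gave each library's group and number. Of the symbols, 27 had become date numbers and were restored by gene identifier. Genes with low counts were removed by filterByExpr (minimum count 10 and total 15), and the other 11459 were scaled with TMM and tested together with edgeR 4.0.16 in R 4.3.3 (glmQLFit, robust, glmQLFTest, group as the only term), with Benjamini-Hochberg adjustment and a threshold of 0.05. Each SE was derived from the F statistic. Within-library ratios used counts plus 0.5 for the test. Levels per kilobase used merged exons of protein-coding transcripts in GENCODE vM21 (GRCm38), and gene positions came from RefSeq on GRCm38.p6. Replicate pairs differed beyond sampling noise (chi-square per degree of freedom 3.80 to 13.5). The pipeline was run on simulated counts in which few genes changed, in both directions equally. In the data 76.7% of genes passed, so that run could not test the choice of scaling. Alternatives were 3 other scalings, 2 other filters, DESeq2 1.42.0, limma-voom (limma 3.58.1), a replicate block and each library left out. All 39 genes are named. Related genes were named by the largest rise and fall per branch among those with a mean of at least 5 CPM. The members and lists were chosen with earlier results of these data known. One marker list is not reported here.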

Additional observations from a re-analysis of the deposited data

How the results depend on the processing

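The counts of the 39 genes that rose and fell, 22 and 9, lay between 18 and 23 and between 8 and 12 under every alternative except library size alone, which gave 12 and 19. That scaling also gave 17 related genes higher (36 with TMM), and 2166 genes higher and 8003 lower over the whole table (4189 and 4602). With each library left out in turn, 21 to 23 of the 39 rose and 8 to 11 fell. Signs changed for genes with small differences. With library size alone the log2 fold changes were -0.49 for Mafg, -0.62 for Srxn1, -0.37 for Sod1, -0.42 for Cat, -0.31 for G6pdx, -0.0493 for Pgd, -0.23 for Me1, -0.37 for Aox1, -0.0297 for Ugdh, -0.21 for Ephx1 and -0.13 for Gstm1. With upper quartile factors they were -0.17 for Mafg, -0.31 for Srxn1, -0.0490 for Sod1, -0.10 for Cat and -0.0511 for Aox1. Srxn1, at 0.01 with TMM, was also -0.00229 with no filter, -0.0239 with limma-voom and -0.0203 with the replicate block, and ran from -0.22 (without β-elemene replicate 2) to 0.16 (without β-elemene replicate 3) with each library left out, with -0.0215 without PBS replicate 3. Leaving out a library gave -0.11 (without β-elemene replicate 2) to 0.66 for Aox1 and -0.51 to 0.0873 (without β-elemene replicate 2) for Gsta3. The Cat to Sod1 log2 ratio difference of -0.05 ran from -0.0938 to 0.0317, the latter without PBS replicate 2. Median-of-ratios factors, DESeq2 and limma-voom changed no call of the 39. Gsta4 and Aox1 were not tested with a filter of 1 CPM in 3 libraries. Of replicate numbers shared between groups, deviations from the group mean correlated by -0.03, 0.06 and 0.02 for numbers 1, 2 and 3. Not every library correlated best with its own number. No pairing was detected, but 3 libraries per group cannot show that there was none, and the labels do not state it. A replicate block gave 22 rising and 10 falling, with Taldo1 added. Ratios without the added 0.5 counts moved by less than the replicate spread, and Gsta4 over Gstm1 was not computed so because of its 0 counts. The cause of these changes was not tested. Depth limits Gsta3, Gsta4, Aox1, Nqo1 and Me1 most: 3 counts equal 0.116 to 0.195 CPM.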
